A study of Mus musculus with 198 samples.

Results

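The 10 genes described here belong to the mammalian circadian clock and its direct output: the period genes Per1, Per2 and Per3, the PAR bZIP factors Dbp, Tef and Hlf, the nuclear receptors Nr1d1 and Nr1d2, and the activators Arntl and Npas2. Clock and the cryptochrome genes are not in the set. All 10 were present among the 56332 features of the deposited count table, and each had a value in every library of 22 mice and 9 tissues. The set was selected on measured values of the treatment contrast: a list of clock genes had been seen to be higher in the kidneys of treated mice, so treatment values are given below as a description. The question of whether the tissues of a mouse deviate together was posed along with the set, with earlier results of these data in view, so those values too support nothing beyond themselves. The contrast of the sexes is not known to have been used.

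The libraries came from whole tissue of C57BL/6 mice kept on a 12:12 hour cycle of light and dark. Tissue was collected from 22 mice, 9 tissues each: 10 mice (5 female and 5 male) received an antibody against PAPP-A, a protease that cleaves binding proteins of insulin-like growth factors, and 12 mice (6 female and 6 male) received the control treatment, each for 17 weeks. The 9 tissues of a mouse carry its number, so the same 22 animals stand behind every tissue, and each mouse is 1 replicate. The hour at which tissues were taken and the age of the mice were not given in the sources used here.

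The clock is a feedback loop of transcription that runs in nearly every cell and is set to the light cycle by the brain. ARNTL (BMAL1), paired with CLOCK or with its relative NPAS2, activates genes that hold E-boxes, among them the period genes, Nr1d1, Nr1d2 and Dbp. PER proteins with cryptochromes then repress that activation, while NR1D1 and NR1D2 (REV-ERB alpha and beta) repress Arntl and Npas2 through ROR elements, so Arntl and Dbp peak at opposite times of day. DBP, TEF and HLF bind D-boxes in output genes and in Per genes, and Per1 also responds directly to glucocorticoids.

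The promoters of 4 members are shown because they hold letters that match E-boxes, D-boxes or ROR elements, the elements through which the loop acts. The windows run from 250 bases before to 50 bases after a RefSeq start site on GRCm38.p6, and 9 of the 10 members had at least 1 such window (12 windows in all). Capitals mark an E-box in Per1 and Tef, a pair of D-boxes in Per3 and a ROR element in Arntl. Per1 is from chr11:69098699-69098998 on the + strand, Tef from chr15:81811164-81811463 on the + strand, Per3 from chr4:151044616-151044915 on the - strand and Arntl from chr7:113207261-113207560 on the + strand.
Per1: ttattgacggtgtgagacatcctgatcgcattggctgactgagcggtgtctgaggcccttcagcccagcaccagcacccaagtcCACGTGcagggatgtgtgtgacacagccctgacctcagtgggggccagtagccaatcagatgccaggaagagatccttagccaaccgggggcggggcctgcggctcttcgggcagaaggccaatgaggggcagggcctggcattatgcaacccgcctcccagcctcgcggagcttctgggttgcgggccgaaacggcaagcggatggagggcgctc
Tef: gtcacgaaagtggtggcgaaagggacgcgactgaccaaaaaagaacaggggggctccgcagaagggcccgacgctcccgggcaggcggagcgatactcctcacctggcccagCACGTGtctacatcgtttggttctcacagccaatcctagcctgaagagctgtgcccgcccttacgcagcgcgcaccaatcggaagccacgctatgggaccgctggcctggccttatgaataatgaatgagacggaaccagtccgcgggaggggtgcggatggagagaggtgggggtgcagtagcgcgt
Per3: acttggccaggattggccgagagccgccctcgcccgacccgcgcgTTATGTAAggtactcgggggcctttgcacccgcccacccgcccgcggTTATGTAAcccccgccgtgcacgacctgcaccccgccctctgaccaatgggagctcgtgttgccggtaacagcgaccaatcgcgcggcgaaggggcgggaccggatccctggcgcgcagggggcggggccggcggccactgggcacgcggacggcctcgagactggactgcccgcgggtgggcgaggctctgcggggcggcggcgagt
Arntl: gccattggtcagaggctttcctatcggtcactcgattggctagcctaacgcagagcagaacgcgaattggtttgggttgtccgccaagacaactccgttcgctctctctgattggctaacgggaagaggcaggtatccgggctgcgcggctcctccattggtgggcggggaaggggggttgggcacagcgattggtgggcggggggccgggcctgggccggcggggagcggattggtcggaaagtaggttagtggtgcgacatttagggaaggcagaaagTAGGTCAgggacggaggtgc

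The E-box CACGTG began 166 bases before the start site in the Per1 window and 138 bases before it in the Tef window, and the other Tef window held one as well. Of all 32851 promoter windows of this length, 7.15% held CACGTG on either strand, against 3 of the 12 windows of the members. The D-box TTATGTAA stood at 205 and 158 bases before the Per3 start and was found in 0.938% of all windows and in no other member's. The ROR element TAGGTCA began 30 bases after the Arntl start and was in 2.61% of all windows, and the E-box variant CACGTT was in the Nr1d1 window and in 4.68% of all. TTACGTAA (0.119% of all windows) and TGGGTCA (3.98%) were in none of the 12. No 2 of the matches overlapped. These matches describe letters in a short window and say nothing of elements farther away.

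Libraries held 4138419 to 19517950 counts, but a median of 87.4% of each library fell in 9 abundant ribosomal, mitochondrial and other features, so that a median of 1099970 counts (33377 to 4694597) remained for all other genes. Levels below are counts per 1e6 (CPM) on the scale of those remaining counts, after TMM scaling over all libraries. Markers of the labelled tissue lay within 2 log2 units of that tissue's median, or above it, in all but 6 libraries, 1 of which, the skin of anti-PAPP-A female mouse 36, also had only 308 genes with 10 or more counts. These 6 libraries are called in doubt: hearts of anti-PAPP-A male 56 and control female 22, gonadal fat of anti-PAPP-A male 58, lung of control male 68, subscapular fat of control female 20 and that skin. They were kept, and results that rest on them are also given without them. In the skin of mouse 36, 7 members had 0 counts, which at its depth allows a level of up to 86.7 CPM.

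All 10 members varied in level between tissues, and skin had the highest median for 7 members and bone marrow the lowest for 6. Of the 80 neighbouring steps in the members' tissue orders, taken by mean CPM, 37 passed an adjusted p under 0.05 in limma-voom. Adjustment was by Benjamini-Hochberg over all genes and all 36 tissue pairs. Of all combinations of gene and tissue pair, neighbouring or not, 69.5% passed in that fit. Neighbouring steps are the smallest gaps in an order taken from the same data, so these shares cannot be set against each other. The tissues come from the same mice, and with the mouse as a block 6 further steps were called and 1 was lost: bone marrow over gonadal fat for Per2 and Hlf, gonadal fat over spleen for Hlf, spleen over bone marrow for Per3, and heart over kidney and kidney over gonadal fat for Nr1d1 were gained, and lung over kidney for Npas2 was lost. Fewer cells of a type and less RNA per cell cannot be told apart in whole tissue, here or in any result below. Tissue levels also depend on the scaling, since without TMM the log2 ratio of the highest to the lowest tissue median was 1.22 in place of 2.21 for Per2, 2.57 in place of 3.38 for Nr1d2 and 3.62 in place of 2.76 for Per1.

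**Figure D1:**
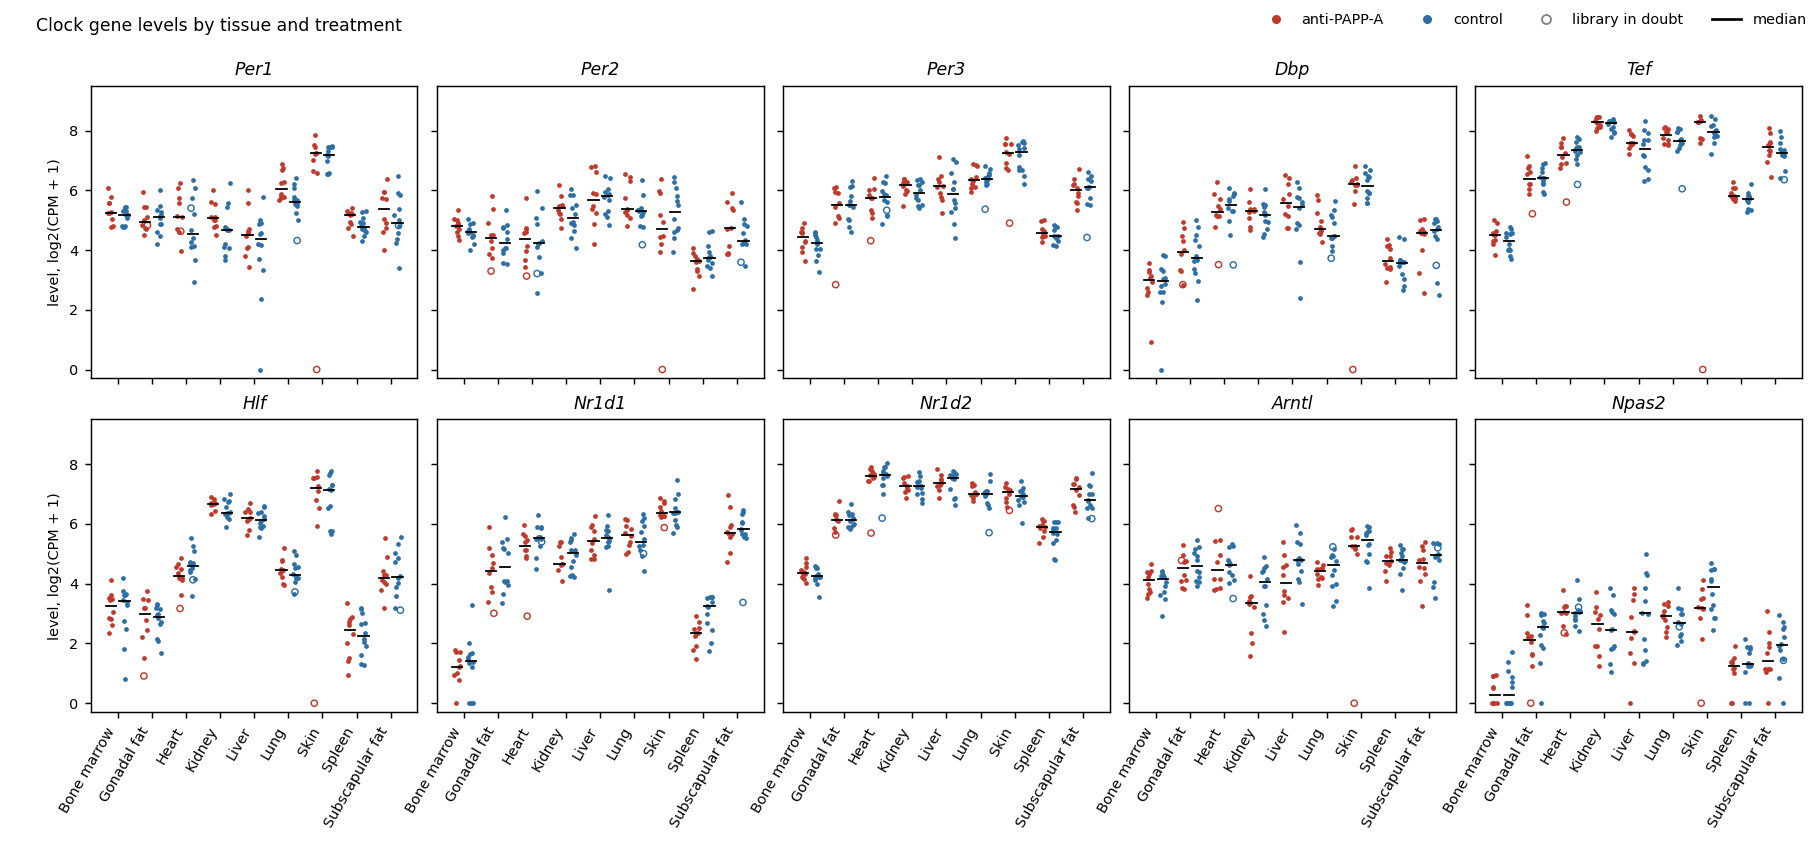
Level of each member, as log2(CPM + 1), in each library by tissue, with anti-PAPP-A mice in red and control mice in blue. Black lines are medians and open circles are the 6 libraries in doubt. Within each tissue the red and blue points cover overlapping ranges, while the tissues lie at different heights, from 1.55 CPM in bone marrow to 82.9 CPM in skin for the medians of Nr1d1.

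Among the period genes, which encode the repressors of the loop, Per1 was highest in skin, with a lowest, median and highest value of 0, 147 and 229 CPM over the 22 libraries. The 0 belongs to mouse 36, and without that library the lowest was 92.3 CPM. Lung followed with 18.9, 53.5 and 116 CPM, and liver was lowest with 0, 21.8 and 62.9 CPM. Skin was above lung by 1.29 ± 0.15 on the log2 scale (SE, adjusted p = 2.18e-14, limma-voom) and lung above subscapular fat by 0.71 ± 0.16 (adjusted p = 3.76e-05), after which no step was called until spleen over liver (0.81 ± 0.21, adjusted p = 0.000377). Per3 had the same tissue at the top, with 28.9, 151 and 217 CPM in skin and 8.69, 18.6 and 29.3 CPM in bone marrow. Spleen and bone marrow, the 2 lowest for Per3, were not called different (0.29 ± 0.17, adjusted p = 0.119), but were with the mouse as a block (0.28 ± 0.13, adjusted p = 0.0464, limma-voom).

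Per2 was ordered differently. Its highest values were in liver, with 17.4, 55.2 and 112 CPM, followed by lung with 17.1, 39.0 and 92.4 CPM, and its lowest in spleen with 5.54, 11.9 and 23.9 CPM. Liver was above lung by 0.36 ± 0.16 (adjusted p = 0.0391, limma-voom), yet without TMM lung had the highest Per2 median (46.7 CPM, against 36.7 CPM in liver), and heart the lowest (12.8 CPM, against 15.7 CPM in spleen). No step among lung, kidney and skin was called for Per2, while skin over subscapular fat was (0.63 ± 0.18, adjusted p = 0.000978, limma-voom).

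The PAR bZIP factors, which carry clock time to output genes, spanned the tissues more widely. Dbp ranged over 0, 72.6 and 113 CPM in skin and over 0, 6.95 and 13.3 CPM in bone marrow; liver, heart and kidney lay together in between, with medians of 43.8, 41.02 and 37.7 CPM, and no step among these 3 was called. Tef was highest in kidney (in skin without TMM), with 221, 308 and 352 CPM, ahead of skin with 0, 256 and 358 CPM by a step that was not called (0.24 ± 0.13, adjusted p = 0.0811, limma-voom). Spleen had 37.3, 53.0 and 76.2 CPM of Tef and bone marrow 11.9, 21.1 and 31.2 CPM, a step of 1.41 ± 0.15 (adjusted p = 1.66e-16). Hlf differed most between tissues among the 3: skin, kidney and liver had medians of 141, 99.9 and 70.5 CPM, heart, lung and subscapular fat 21.1, 19.998 and 17.8 CPM, and bone marrow, gonadal fat and spleen 9.71, 6.48 and 4.03 CPM. The step from liver to heart was 1.78 ± 0.17 (adjusted p = 8.91e-20), and that from lung to bone marrow 1.35 ± 0.20 (adjusted p = 7.43e-10).

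Nr1d1 and Nr1d2, the repressors of Arntl, differed from each other in the tissue at the top. Nr1d1 had 50.6, 82.9 and 175 CPM in skin, 9.36, 53.2 and 124 CPM in subscapular fat, 1.82, 5.12 and 10.9 CPM in spleen and 0, 1.55 and 8.86 CPM in bone marrow, where its counts ran from 0 to 24. The locus of Nr1d1 overlaps Thra on the opposite strand in GENCODE vM21. The strand setting of the quantification was not given in the sources used here, so reads of these genes cannot be told apart with certainty. Loci of Dbp (Sphk2), Tef (Gm17597) and Arntl (Gm45355) also overlap a gene on the opposite strand. Per3 overlaps Camta1 on the same strand, and Npas2 overlaps Gm3617 on the same and Gm20428 on the opposite strand. Reads in those overlaps were not examined. Nr1d2 had 50.8, 197 and 260 CPM in heart and 10.9, 18.9 and 27.8 CPM in bone marrow. Heart, liver (median 178 CPM) and kidney (153 CPM) were not called different for Nr1d2, while skin exceeded gonadal fat by 0.85 ± 0.11 (adjusted p = 7.46e-12, limma-voom). The heart value at the low end, 50.8 CPM, came from a library in doubt. The order at the top turned with the scaling: without TMM lung had the highest Nr1d2 median, at 154.6 CPM, followed by kidney at 147.5, skin at 140.4 and heart at 133.3 CPM.

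Of the activators of the loop, Npas2 was low in every tissue, while the place of Arntl among the members varied. In spleen Arntl had a median of 3.50 CPM per kb of exon, above Per3 (2.22) and Per2 (2.03) and below Dbp (3.65). In kidney only Npas2 was lower. Arntl had medians between 16.8 and 28.2 CPM in 7 of the 9 tissues, with skin above them at 38.5 CPM and kidney below at 10.2 CPM. Skin over heart (0.63 ± 0.16, adjusted p = 0.000275, limma-voom) and bone marrow over kidney (0.53 ± 0.19, adjusted p = 0.00896) were called, and of the steps between these only lung over bone marrow was (0.36 ± 0.17, adjusted p = 0.0430). Npas2 had the lowest median CPM per kb of exon of the 10 members in each tissue, with a median of 9.54 CPM in skin, 7.20 CPM in heart and 0.217 CPM in bone marrow, where counts were 0 to 3 and 11 of its 21 empty libraries lay. Scaled to exon length, kidney held a median of 39.1 CPM per kb of Tef, 28.3 of Nr1d2, 14.95 of Hlf, 12.6 of Dbp, 8.92 of Nr1d1, 6.94 of Per3, 6.52 of Per2, 4.74 of Per1, 1.36 of Arntl and 0.962 of Npas2.

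The antibody contrast asks whether the clock genes of treated mice differ from those of controls in each tissue. No member passed in any tissue. Over 9 tissues 81 pairs of member and tissue passed the filter on low counts, and 0 of the 81 had an adjusted p under 0.05 in edgeR's quasi-likelihood test with sex as a covariate; 3 had an unadjusted p under 0.05, and limma-voom and DESeq2 likewise called 0. The background was as empty, with 0.00724% of genes called in bone marrow and 0% in each of the other 8 tissues. In simulated data with these libraries' means and spread, 86.6% of 2-fold changes and 47.8% of 1.5-fold changes were recovered for this contrast in kidney (12626 genes), and 80.6% and 46.3% in liver (9988 genes). A change well under 2-fold was therefore often not detectable at this depth. The changed genes were drawn at random from all genes tested, not at the members' counts. Recovery for members with few counts, such as Arntl in kidney (median 11.5 counts), was not measured.

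Per1 was the member with the lowest unadjusted p. In lung it had a lowest, median and highest level of 49.8, 66.1 and 116 CPM in anti-PAPP-A mice, against 18.9, 48.3 and 84.7 CPM in control mice. The groups overlapped, and the log2 fold change was 0.61 ± 0.17 (SE, adjusted p = 0.700, edgeR). In kidney it had 21.8, 32.3 and 63.2 CPM in anti-PAPP-A mice and 11.6, 24.5 and 74.4 CPM in control mice, a log2 difference of 0.54 ± 0.21 (adjusted p = 1.00, edgeR); the highest kidney value was that of a control mouse. The remaining pair was Hlf in kidney, at 80.0, 102 and 119 CPM in anti-PAPP-A mice and 58.9, 81.7 and 127 CPM in control mice (0.21 ± 0.10). Per1 had a positive fold change in 9 of 9 tissues, from 0.03 in gonadal fat to 0.61 in lung. Arntl had a negative one in 7 of 9, the largest in kidney (-0.61 ± 0.32), where anti-PAPP-A mice had 1.99, 9.16 and 18.1 CPM and control mice 4.94, 15.6 and 28.9 CPM from 1 to 41 counts.

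Averaged over the 9 tissues of each mouse, so that each mouse gives 1 value, none of the 7 members testable in every tissue was called (limma, 0% of 7511 genes called, 303 of them with an unadjusted p under 0.05). Per1 had a log2 difference of 0.25 ± 0.12 (SE, adjusted p = 0.813) and Arntl one of -0.22 ± 0.13 (adjusted p = 0.813). The other 5 lay between 0.04 for Per2 and 0.10 for Nr1d2. Other clock genes fixed as a list (Clock, Cry1, Cry2, Bhlhe40 and others, 16 in all) gave 0 calls in 109 tests between treatments, and 13 clock output genes gave 0 in 107 (edgeR).

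**Figure D2:**
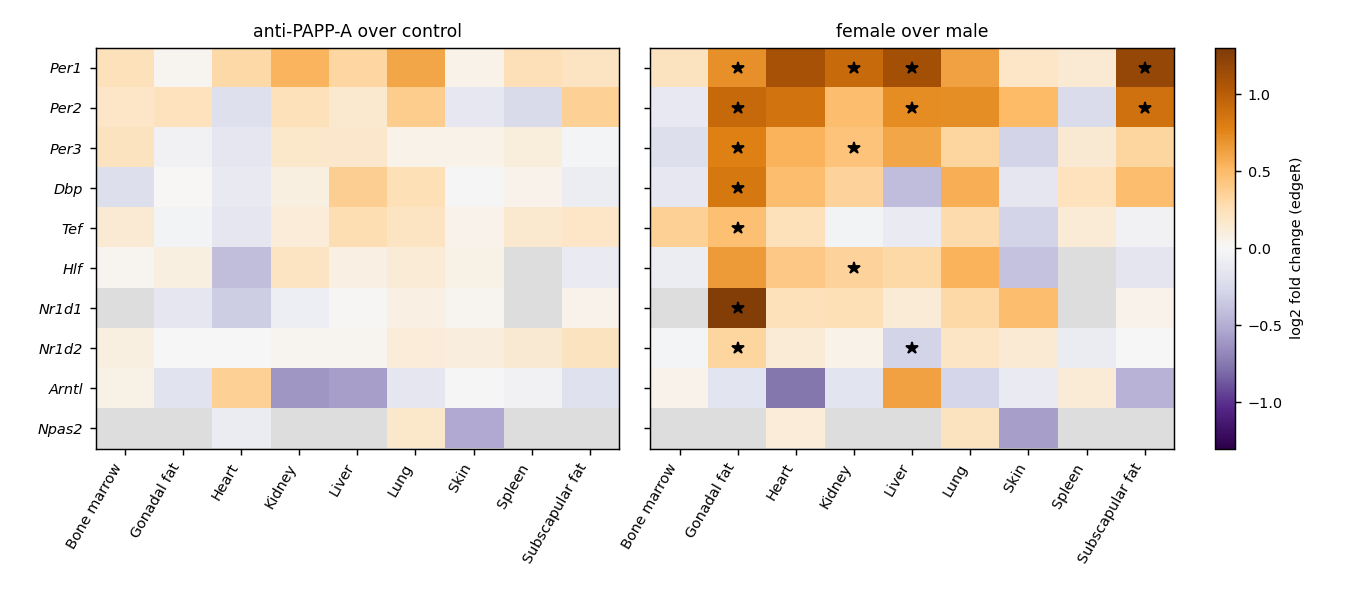
Log2 fold change of each member (rows) in each tissue (columns) from the edgeR fits, for anti-PAPP-A over control on the left and female over male on the right. Stars mark an adjusted p under 0.05 and grey cells did not pass the filter on low counts. The left panel has 0 stars and the right panel 15, of which 7 are in gonadal fat.

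Females and males differed more. Per1 was higher in females in gonadal fat, subscapular fat, kidney and liver, Per2 in both fat depots and liver, and in gonadal fat 7 of the 9 members tested were higher in females. In all, 15 of 81 pairs were called (edgeR, treatment as a covariate), 14 higher and 1 lower in females. The share called differed between tissues, and so did the background: 7 of 9 in gonadal fat where 14.4% of genes were called, 2 of 9 in subscapular fat (15.4%), 3 of 9 in kidney (24.9%) and 3 of 9 in liver (27%). The counts in kidney, liver and subscapular fat lie near that background. The median log2 fold change of the members was 0.70 in gonadal fat, against 0.01 over all genes, and 0.34 in kidney, against 0.03. None was called in bone marrow (0.659% of genes), heart (0.203%), lung (0.107%), skin (0.338%) or spleen (3.99%), where edgeR gave an unadjusted p under 0.05 for 1, 4, 5, 1 and 0 members. Over all tissues limma-voom called 15 of 81 and DESeq2 16 of 79. Whether the sex difference itself varied between tissues was not tested. Females were mice numbered from 3 to 36 and males from 37 to 71, and the hour of collection was not given. A difference between the sexes can therefore not be told apart here from a difference in time of collection.

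Per1 had the most calls. In subscapular fat it had 17.8, 56.3 and 88.3 CPM in females (lowest, median and highest of 11) and 9.58, 25.5 and 34.7 CPM in males. The highest male lay below the female median, and the log2 fold change was 1.19 ± 0.24 (SE, adjusted p = 0.00318, edgeR). In gonadal fat it had 27.9, 39.9 and 63.3 CPM in females and 17.3, 25.6 and 34.4 CPM in males (0.70 ± 0.15, adjusted p = 0.00276, edgeR). In kidney it had 24.2, 42.5 and 74.4 CPM in females and 11.6, 21.8 and 33.5 CPM in males (0.92 ± 0.21, adjusted p = 0.00189, edgeR). The male maxima were again below the female medians. In liver it had 0, 28.6 and 62.9 CPM in females and 4.09, 15.7 and 25.1 CPM in males (1.12 ± 0.37, adjusted p = 0.0289, edgeR), from 0 to 36 counts, the 0 being control female 22, whose depth allows up to 4.32 CPM. The liver call was lost under limma-voom (adjusted p = 0.346) and without mouse 18, 33 or 37. In heart Per1 differed by 1.09 ± 0.29 (adjusted p = 0.202, edgeR) and in lung by 0.62 ± 0.17 (adjusted p = 0.215), neither of them called.

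Per2, a core repressor of the loop, had 14.1, 25.5 and 55.1 CPM in females and 8.82, 15.2 and 26.6 CPM in males in gonadal fat (0.93 ± 0.22, adjusted p = 0.00551, edgeR). In subscapular fat it had 11.1, 32.2 and 59.0 CPM in females and 10.1, 17.6 and 25.5 CPM in males (0.88 ± 0.24, adjusted p = 0.0208), a call lost under limma-voom (adjusted p = 0.0613). In liver it had 35.99, 59.5 and 112 CPM in females and 17.4, 38.4 and 96.6 CPM in males (0.73 ± 0.23, adjusted p = 0.0222), a call lost without mouse 6. Per3 was called in gonadal fat (42.5, 60.7 and 78.3 CPM in females and 6.18, 31.9 and 59.3 CPM in males, 0.79 ± 0.22, adjusted p = 0.0165) and in kidney (50.2, 75.5 and 83.0 CPM in females and 41.9, 56.1 and 76.7 CPM in males, 0.44 ± 0.11, adjusted p = 0.00476). Hlf was also called in kidney, with 82.6, 103 and 127 CPM in females and 58.9, 80.7 and 119 CPM in males (0.34 ± 0.10, adjusted p = 0.0106). Ranges of the sexes overlapped in each of these tissues.

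**Figure D3:**
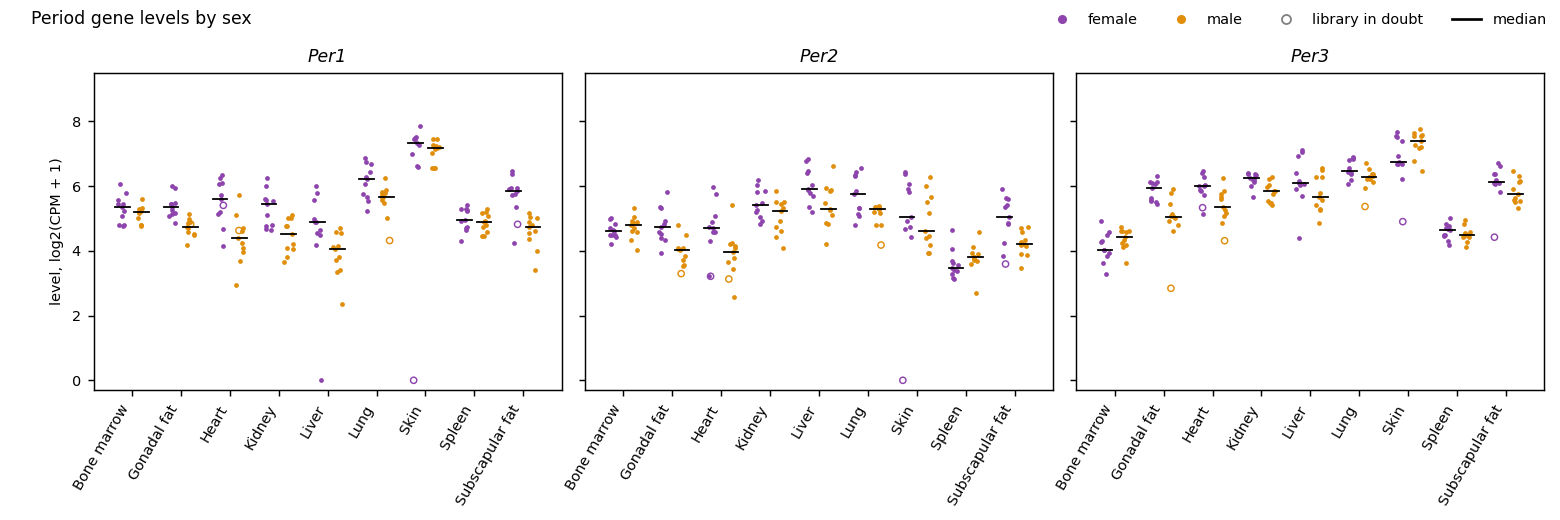
Level of Per1, Per2 and Per3, as log2(CPM + 1), in each library by tissue, with females in purple and males in orange. Lines are medians and open circles are libraries in doubt. In subscapular fat, gonadal fat and kidney the median of Per1 in females, 56.3, 39.9 and 42.5 CPM, lies above the highest male.

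The widest sex difference of any member was that of Nr1d1 in gonadal fat, with 13.9, 35.0 and 73.8 CPM in females and 7.06, 14.6 and 35.3 CPM in males (1.28 ± 0.26, adjusted p = 0.00233, edgeR). Dbp there had 4.02, 19.0 and 30.8 CPM in females and 6.05, 9.13 and 21.9 CPM in males (0.84 ± 0.27, adjusted p = 0.0407). Tef (0.47 ± 0.15, adjusted p = 0.0408) and Nr1d2 (0.33 ± 0.11, adjusted p = 0.0366) were also called. These 3 calls rest on few libraries: without the library in doubt, gonadal fat of mouse 58, their adjusted p-values were 0.0645 for Dbp, 0.0540 for Tef and 0.0612 for Nr1d2, and leaving out 1 mouse ended the call in 13, 13 and 7 of 22 cases. The only member called lower in females was Nr1d2 in liver, at 99.4, 143 and 193 CPM in females and 165, 197 and 226 CPM in males (-0.29 ± 0.10, adjusted p = 0.0293), a call lost without mouse 4, 45 or 55. Arntl was called in no tissue, with -0.76 ± 0.30 in heart (-0.39 ± 0.23 without the libraries in doubt) and 0.63 ± 0.27 in liver.

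Other clock genes were called in both directions between the sexes, at a share near that of all genes (9.15% of 112288 tests over the 9 tissues). Of 109 tests on the 16 other clock genes, 8 were called higher and 4 lower in females (edgeR); Cry2, a repressor that pairs with PER proteins, was 0.63 ± 0.14 higher in gonadal fat (adjusted p = 0.00452), where its relative Cry1 was lower (-0.67 ± 0.19, adjusted p = 0.0178). Clock, the partner of Arntl, was lower in females in liver (-0.40 ± 0.10, adjusted p = 0.00369) and in subscapular fat (-0.50 ± 0.13, adjusted p = 0.0143). Of 107 tests on output genes 6 were called higher and 6 lower (11.2%, against 11% of the tests on other clock genes). Median usable counts were lower in females than in males in subscapular fat (971995 and 1739130), gonadal fat (1095140 and 1374400) and liver (774623 and 1121470) and higher in kidney (1447210 and 1100500); the part of depth in these differences was not tested.

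Clock genes differed between individual mice of the same sex and treatment, in the same direction over several tissues. Each library's log2 CPM was set against the mean of its tissue, sex and treatment, and an F-test asked, for every gene, whether the 9 tissues of a mouse deviated together. All 7 members that passed the filter in every tissue were called, against 1.03% of 7511 genes (limma-voom, Benjamini-Hochberg adjustment over all genes). F, the variance between mice over that left within them, was 6.09 for Per2 (adjusted p = 9.23e-08, rank 5 of all genes), 5.17 for Nr1d2 (3.68e-06), 4.52 for Tef (4.94e-05), 3.96 for Per1 (0.000382), 3.78 for Dbp (0.000783), 3.73 for Arntl (0.000919) and 2.84 for Per3 (adjusted p = 0.0315). Of the 9 abundant features, 6 were called in the same test (Lars2, Gm42418, AK155692, NR_046233, Mir6236 and GU332589), with ranks from 10 to 19 that lie among those of the members. With usable depth as a covariate 0 of the 9 were called, with ranks of 79 or lower down the list. Usable depth is the count outside these same 9 features, so their loss of the call was largely built in. It is therefore no yardstick for the members. In that fit the 7 members had ranks from 5 to 36 (0.839% of all genes called). Hlf, Nr1d1 and Npas2 were not tested, since they failed the filter in 1, 2 and 6 tissues.

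The call held for all 7 without the 6 libraries in doubt and with the depth covariate. It was least stable for Per3, which lost it without bone marrow, heart, liver, lung or spleen and without mouse 3, 11, 22, 23, 61 or 68. Dbp lost it without liver, lung or mouse 3, Per1 without mouse 18 and Arntl without mouse 11, and limma-trend on log2 CPM called only Per2, Nr1d2 and Arntl. Of 8 other clock genes tested (Clock, Cry2, Bhlhe40, Rora, Arntl2, Csnk1d, Csnk1e and Btrc) 0 were called by the limma-voom F-test, with an unadjusted p under 0.05 for Cry2 and Bhlhe40. Of 9 output genes tested only Fkbp5 (F = 6.11) and Tsc22d3 (F = 5.78), both induced by glucocorticoids, were called, while Usp2 and Wee1 had an unadjusted p under 0.05 and were not.

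Averaged over its 9 tissues, control female 18 had the highest Per2 of the 22 mice, at 0.64 log2 units above the mean of its group, and control male 68 the lowest, at -0.65. Mouse 18 was above its group's mean for Per2 in 9 of 9 tissues, and mouse 68 in 1 of 9. Dbp ran from -0.72 in control female 22 to 0.68 in control female 3, which was above the mean in 9 of 9 tissues. The mean of mouse 22 includes its heart, a library in doubt, and a bone marrow library with 0 counts of Dbp. Mouse 22 was at -0.60 and mouse 3 at 0.62 without the libraries in doubt. Arntl was highest in control female 11 (0.59, above the mean in 9 of 9 tissues) and below the mean in 9 of 9 tissues in anti-PAPP-A male 62 (-0.58). Its lowest mean, -0.66 in anti-PAPP-A female 36, includes the shallow skin library and was -0.27 without it, against -0.54 for mouse 62, then the lowest.

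To set the members side by side, a clock contrast was computed for each library: the mean deviation of the period genes, PAR bZIP factors and Nr1d genes (8 members) minus that of Arntl and Npas2. All members enter it in every tissue, although Npas2 passed the filter on low counts in only 3 tissues, Nr1d1 in 7 and Hlf in 8. A high contrast means that the 8 stood higher relative to the pair than in the other mice of the group. A shift of either part alone can give it, and so can low levels of both. Among anti-PAPP-A mice the means over the 9 tissues ran from -0.43 in female 23 to 0.46 in female 36. Female 36 was below its group's mean for both Dbp (-0.57) and Arntl (-0.66), values that include its shallow skin library. Control female 18 averaged 0.87 over its 9 tissues, with a lowest, median and highest value of -0.04, 1.06 and 2.65, the last in liver. Control female 3 averaged 0.66 and was positive in 9 of 9 tissues. Control female 11 averaged -0.57 and was negative in 9 of 9, control female 22 averaged -0.55 with -2.02 in liver, and control male 68 averaged -0.50. The SD between mouse means was 0.36 in anti-PAPP-A females and 0.63 in control females, and 0.26 in anti-PAPP-A males and 0.33 in control males, differences that were not tested. Mice 18 and 3 lay on opposite sides of their group's mean in usable depth (-0.30 and 1.02 log2 units).

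**Figure D4:**
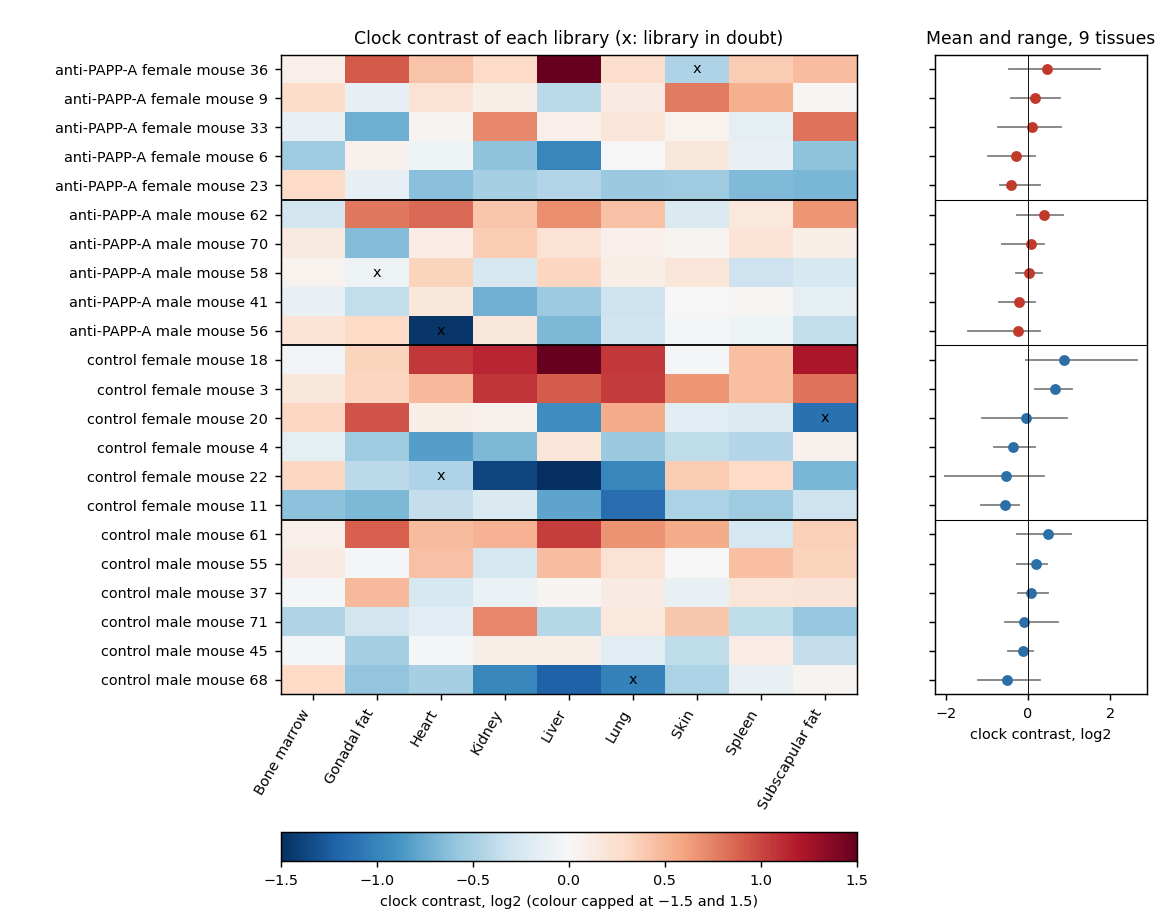
Clock contrast of each library (log2), with mice in rows grouped by treatment and sex and tissues in columns, and on the right the mean (point) and range (line) over the 9 tissues of each mouse. Crosses mark the libraries in doubt. Rows of 1 colour, such as control female 3 (9 of 9 positive) and control female 11 (9 of 9 negative), are mice whose tissues deviate together, and the bone marrow column is the palest, with an SD of 0.27. Npas2 and Nr1d1 did not pass the filter on low counts in bone marrow.

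Across the 22 mice the contrast of one tissue correlated with that of another at a mean Pearson r of 0.361 over the 36 tissue pairs, and 32 pairs were positive. Without the libraries in doubt the mean was 0.433 and 34 pairs were positive. These values describe the mice and carry no test, and tissues of a mouse also share the animal's handling. Kidney and lung were the most alike (r = 0.807), followed by liver and subscapular fat (0.786). Bone marrow stood apart, with a mean r of 0.0495 with the other 8 tissues, against 0.549 for lung and 0.457 for liver. Liver had the widest contrast between mice (SD 1.03) and bone marrow the narrowest (0.27). In bone marrow Npas2 had 0 to 3 counts and Nr1d1 a median of 2, and both failed the filter there. Values of these members lie near the floor in that tissue, and their part in its low r and narrow SD was not tested. In liver Npas2 failed the filter too, with a median of 3.5 counts, and its deviations had their highest SD there (0.91). Per1 had 0 counts in the liver of control female 22. The part of low counts in the wide SD of liver was not tested. By single member, the mean r between tissues was 0.319 for Tef and 0.312 for Nr1d2, and 0.048 for Hlf. A contrast of Dbp minus Arntl alone gave a mean of 0.171.

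Within tissues Arntl ran against most other members. All 28 pairs among the 8 members other than Arntl and Npas2 had a positive median r over the 9 tissues, from 0.105 to 0.704, the highest for Per3 with Tef and the next for Dbp with Tef (0.635). All 8 pairs of these with Arntl had a negative median r, from -0.323 for Per1 to -0.0839 for Per2. With Npas2, 6 of 8 were negative. Without the libraries in doubt the positive pairs remained 28 of 28, from 0.002 to 0.628, and the negative ones with Arntl 8 of 8. The share of positive pairs among other genes was not computed.

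Dbp and Arntl, the output and the activator, were tested against each other in each tissue over 22 mice. Pearson r was negative in 7 of 9 tissues, with a median of -0.210. It was lowest in lung (r = -0.662, permutation p = 0.00752, adjusted over 9 tissues p = 0.0677; rho = -0.654, permutation p = 0.00823, adjusted p = 0.0741), and -0.558 without the 2 mice farthest from the median of Dbp, so that no tissue passed the threshold. Liver had r = -0.412 (rho = -0.368) and gonadal fat r = -0.341 (rho = -0.212), which were -0.177 and -0.0147 without 2 mice. Skin had r = 0.859 (rho = 0.502), which rests on mouse 36: without that library it was 0.0918 (rho = -0.0558). Bone marrow had r = 0.503 (rho = 0.350, adjusted permutation p = 0.224 for r), and 0.0639 without 2 mice.

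Mouse means over all 9 tissues were tested as well. The 35 relations among the 7 tested members and between them and the glucocorticoid targets Fkbp5 and Tsc22d3 were tested over 22 mice by permutation within sex and treatment. All 15 pairs among Per1, Per2, Per3, Dbp, Tef and Nr1d2 were positive, 12 passed by Pearson r, and 8 passed by both Pearson r and Spearman rho. All 15 were positive without the libraries in doubt too, where 9 passed by r and 8 by both. With all libraries Dbp with Tef was closest (r = 0.882, adjusted permutation p = 0.00035; rho = 0.839, adjusted p = 0.00035; unadjusted p = 1e-05, the smallest these permutations give), and r was 0.855 without the 2 farthest mice. Per3 followed with Dbp (r = 0.822, adjusted permutation p = 0.00128; rho = 0.762, adjusted p = 0.00192; 0.687 without 2 mice) and with Per2 (r = 0.791, adjusted permutation p = 0.0014; rho = 0.804, adjusted p = 0.000612; 0.776 without 2 mice). Points of 1 mouse share its libraries and their depth, and the share of other gene pairs that are positive or pass was not computed. Over single libraries, in place of mouse means, the median r of 7511 genes with Dbp was 0.298, and 0.0104 without the libraries in doubt. Per1 was the loosest: with Per2 it had r = 0.574 (adjusted permutation p = 0.0427) but rho = 0.342 (adjusted p = 0.279) and r = 0.301 without 2 mice.

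**Figure D5:**
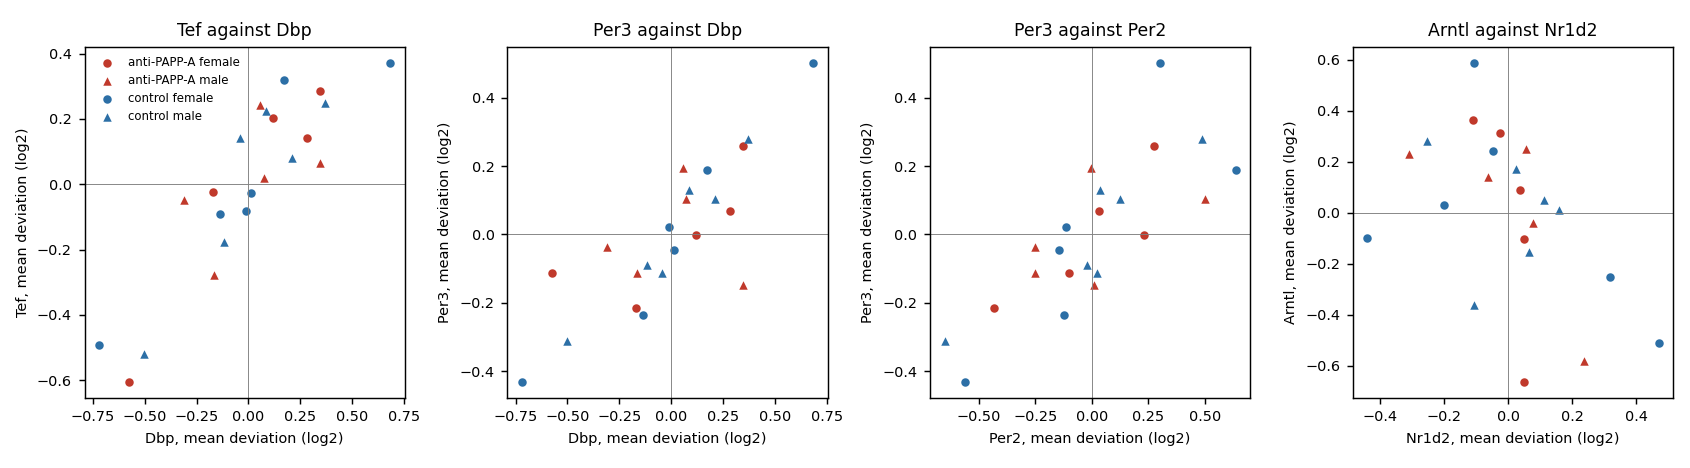
Mean deviation over the 9 tissues (log2) of each of the 22 mice for 4 pairs of members, with anti-PAPP-A mice in red, control mice in blue, females as circles and males as triangles. Tef against Dbp (r = 0.882), Per3 against Dbp (0.822) and Per3 against Per2 (0.791) rise together, while Arntl against Nr1d2 falls (-0.492).

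Arntl was negatively related to all 6 of the others, from -0.101 with Dbp to -0.492 with Nr1d2 (rho = -0.511, adjusted permutation p = 0.0737 for r and 0.0702 for rho; -0.517 without 2 mice), and 0 of the 6 passed. Without the libraries in doubt r was -0.413 to -0.585 and 3 passed by r: Per3 (-0.566, adjusted permutation p = 0.0435; rho = -0.624, adjusted p = 0.025), Tef (-0.547, adjusted p = 0.0435; rho = -0.538, adjusted p = 0.0457) and Nr1d2 (-0.585, adjusted p = 0.0463; rho = -0.520, adjusted p = 0.0647). Without the 2 farthest mice these were -0.655, -0.612 and -0.553. Of the 14 relations of members with Fkbp5 or Tsc22d3, 12 were positive and 0 passed with all libraries, at r from -0.533 to 0.567. Without the libraries in doubt 12 were again positive, at r from -0.611 to 0.701, and 5 passed by r and 2 by both r and rho. The highest r in both cases was that of Per1 with Fkbp5. Per1 and Fkbp5, both responsive to glucocorticoids, had r = 0.567 (rho = 0.443, adjusted permutation p = 0.0769 for r; 0.229 without 2 mice), and r = 0.701 (rho = 0.626, adjusted permutation p = 0.0247 for r and 0.025 for rho; 0.567 without 2 mice) without the libraries in doubt. Mouse 18 was highest of the 22 for Per1, Per2, Nr1d2, Fkbp5 and Tsc22d3, with Fkbp5 at 1.02 log2 units above its group's mean and above it in 9 of 9 tissues. Without the libraries in doubt mouse 36 had the highest Tsc22d3, and mouse 18 the highest of the other 4.

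Among 6641 named genes outside the set, deviations most like those of Dbp over all libraries were those of Eef2k (Pearson r = 0.633), Il11ra1 (0.626), Pcnt (0.624), Rab11fip3, Pkd1, Hdac4, Ppp6r2, Map2k7, Gas6 and Svil (0.587), and the most opposite were Zfp207 (-0.449), Btg1 (-0.431), Tpp2, Vkorc1l1, Efr3a, Picalm, Lmbrd1, Slc35e2, Itpr1 and Inpp5f (-0.393). The median r over all 7511 genes was 0.298, so genes were on the whole positively related to Dbp. Without the libraries in doubt the median was 0.0104, and 4 of the 10 highest genes remained (Il11ra1 at 0.445, Rab11fip3, Pcnt and Eef2k at 0.415), while none of the 10 lowest did. Within the set Tef was the gene most like Dbp of all genes in both cases (0.755, and 0.635 without the libraries in doubt), and Per3 had rank 3 and rank 2 (0.627 and 0.563). Arntl was at 0.104, and at -0.194 without the libraries in doubt. These are correlations over libraries that share mice and depth, and no test was made.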

How the data were processed

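Total RNA from 9 tissues of 22 mice was sequenced with a stranded total RNA kit (100 ng of input, 12 PCR cycles), per the labels' protocols. The authors deposited 1 table of whole-number counts per gene for each library; FastQC 0.11.5, Salmon and the mm10 build are named in the submitters' processing notes, and the annotation, strand setting and rounding were not given in the sources used here. Groups, sex and mouse came from the labels, which matched the table in every library, and the number of per-sample columns not used was 0. The 10 members, the lists and the tests were chosen with earlier results of these data known.

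Counts were tested within each tissue with edgeR 4.0.16 (quasi-likelihood, TMM, filterByExpr) in R 4.3.3. Differences between mice and tissue pairs were tested with limma-voom (limma 3.58.1) over all libraries, and mouse means with limma on log2 CPM with a prior count of 2. Adjusted p-values are Benjamini-Hochberg over all genes tested, threshold 0.05. Correlations used 100000 permutations of mice within sex and treatment (NumPy, two-sided). Levels are CPM with TMM factors, scaled to counts outside 9 features that each hold 0.9% or more of a library on average. A library was held in doubt if its tissue markers lay over 2 log2 units below the tissue's median or under 1000 genes had 10 or more counts. A limit for 0 counts is 3 counts of the library and covers counting error only. Tests were tried on simulated counts: differences between mice with an SD of 0.25 log2 units were recovered for 93% of 100 changed genes among 7511. Same-numbered libraries of different tissues come from the same mouse, per the labels, so the mouse pairs tissues and was used as a block in an alternative. Alternatives were limma-voom, DESeq2 1.42.0, RLE factors, no filter, other covariates and scalings, and leaving out libraries, tissues or mice. All members, 16 other clock genes, 13 output genes and the 10 most and least Dbp-like genes were to be named; a further listed gene is not reported here.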

Additional observations from a re-analysis of the deposited data

Results flagged for a closer look

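In 13 of 90 groups (81 pairs of member and tissue and 9 tissues' clock contrasts, 10 anti-PAPP-A mice each) 1 library stood apart from the other 9 by a gap above Dixon's 95% critical value; about 1 group in 20 is so marked by chance. Of these, 12 were libraries in doubt. The skin of female mouse 36 was lowest at 0.68 log2 CPM, its value at 0 counts, for Per1, Per2, Dbp, Tef, Hlf, Arntl and Npas2, and lowest at 4.93 for Per3. The heart of male mouse 56 was lowest for Nr1d1 (3.02), Nr1d2 (5.71) and Tef (5.62 log2 CPM). The gonadal fat of male mouse 58 was lowest for Per3 (2.96 log2 CPM). The only such library not in doubt was the bone marrow of male mouse 62, with Dbp at 1.31 log2 CPM against 2.65 in the next lowest.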

How the results depend on the processing

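Of the 191 alternative values of the counts of calls, correlations and tissue ratios, 186 stayed close to the value reported. Closeness was judged by ratio for counts of calls, by the jackknife SE for correlations and by the SD within tissues for log2 tissue ratios. That SE was computed from the correlations without 1 mouse, so those same values could hardly fall outside it. They are among the 186, and their closeness says nothing of stability. Of the correlations and log2 ratios 0 turned sign, while counts of calls cannot. Calls between treatments were 0 under all 28 alternatives, and 0 under all 24 for the mean over tissues. Calls between sexes were 12 to 16 over 27 alternatives and 12 to 16 without 1 mouse. Members called for differences between mice were 3 of 7 under limma-trend (0.399% of all genes) in place of 7, 5 to 7 without 1 mouse and 8 of 9 among genes passing in 5 or more tissues; the cause was not tested. Neighbouring tissue steps called were 37, 42 with the mouse number as a replicate block, 28 under limma-trend and 41 without the libraries in doubt; treatments and sexes compare different mice, so no pairing applies there. The median Dbp and Arntl correlation was -0.154 to -0.34 over all alternatives and -0.154 to -0.267 without 1 mouse, and the mean correlation of the clock contrast between tissues was 0.308 to 0.398 without 1 mouse and 0.171 for Dbp minus Arntl. CPM without TMM moved the log2 ratio of highest to lowest tissue to 3.62 for Per1, 1.22 for Per2 and 2.57 for Nr1d2. Among single genes, 721 of 789 alternative values stayed on the same side of the threshold and 68 lost a call. Of the fold changes among them 0 turned sign, while the F values of the test between mice cannot turn sign. Depth limits Npas2, Nr1d1 in bone marrow and spleen and Hlf in spleen, which did not pass the filter there, and liver, where Per1 had 0 to 36 counts. The depth covariate and the results without the libraries in doubt for likeness and mouse means were chosen after seeing the data.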
